A study of Mus musculus with 43 samples.

Results

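The microglia genes described here were Cx3cr1, P2ry12, Tmem119 and the 3 chains of complement C1q, C1qa, C1qb and C1qc. They were chosen by name, from the Ensembl identifiers in the table, and all 6 were found among its 10127 genes. RNA sequencing was carried out on 4 hypothalamic nuclei taken by laser capture: the ventromedial (VMH), arcuate (ARC), paraventricular (PVN) and dorsomedial (DMH) nuclei. All mice were adult males of the C57/BL6 strain that lacked the paternal copy of Snord116, a cluster of small nucleolar RNA genes in the Prader-Willi region. The allele came from the line B6(Cg)-Snord116tm1.1Uta/J. Fed mice had food ad libitum and fasted mice had none for 24 hours, and no wild-type library was analysed here. The deletion is carried in the germline, so it is not restricted to microglia. The 41 libraries came from 6 fasted and 6 fed mice, with 4 fasted and 5 fed libraries in ARC, 6 and 5 in VMH, 5 and 5 in PVN, and 5 and 6 in DMH. PVN-86, for example, is the PVN library of mouse 86.

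Microglia are the resident macrophages of the brain, where they survey the tissue, clear debris and refine synapses. In the hypothalamus they respond to diet and to inflammation, and their numbers and state are often read from the genes described here. C1q starts the classical complement cascade and is assembled from A, B and C chains, and in brain its main source is the microglia. CX3CR1 is the receptor for fractalkine, which neurons display, P2RY12 is a receptor for the ADP that injured or active cells release, and TMEM119 is a membrane protein used to tell microglia from blood-derived macrophages. A captured nucleus is a mixture in which neurons and macroglia far outnumber microglia, so every value is an average over all cells of the capture. Fewer microglia and less RNA per microglial cell cannot be told apart in such values.

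All positions are on GRCm38, and all 6 genes lie on the minus strand. The C1q chains are neighbours on chromosome 4, in the order C1qb (136880129 to 136886187), C1qc (136889804 to 136893065) and C1qa (136895917 to 136898803), within 18.68 kb between Ephb2 and Epha8. Tmem119 lies on chromosome 5 (113793729 to 113800516), next to Selplg, itself a microglial gene. P2ry12 lies on chromosome 3 (59216272 to 59262871), beside the related ADP receptor gene P2ry13 and inside Med12l, which runs on the opposite strand and shares 9 exon bases with it. Cx3cr1 lies on chromosome 9 (119901616 to 120069879), and 78 of its 4505 exon bases are shared with the opposite-strand gene Gm33858. Whether reads were counted by strand is not given in the sources used here, so reads over those shared bases cannot be assigned.

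Start sites with upstream sequence were held in the RefSeq table (GRCm38.p6) for 4 of the 6 genes, Cx3cr1, C1qb, C1qc and P2ry12. The upstream bases shown are those of the 3 genes that hold the letters marked below, C1qb, C1qc and P2ry12. Those of Cx3cr1 lack the letters and are not shown. Both C1q genes were called for batch, while P2ry12 and Cx3cr1 were not. Each is written 5′ to 3′ on the gene's own strand, and the capitals mark the letters AGGAAGT or, on the other strand, ACTTCCT, a core recognised by PU.1, the ETS factor of the macrophage lineage. The C1qb stretch is chr4:136886201-136886450, that of C1qc is chr4:136893066-136893164 and that of P2ry12 is chr3:59262986-59263235, all on the minus strand. Bases that GENCODE places in an exon were left out, so the C1qc stretch ends 151 bases before its RefSeq start site. The RefSeq start site of P2ry12 lies 114 bases upstream of the GENCODE gene, and that of C1qb 13 bases upstream.
C1qb: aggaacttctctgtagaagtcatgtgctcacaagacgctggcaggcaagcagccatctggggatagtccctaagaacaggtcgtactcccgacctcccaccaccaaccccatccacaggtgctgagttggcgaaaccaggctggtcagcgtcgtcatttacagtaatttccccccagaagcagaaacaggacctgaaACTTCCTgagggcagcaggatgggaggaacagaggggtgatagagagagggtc
C1qc: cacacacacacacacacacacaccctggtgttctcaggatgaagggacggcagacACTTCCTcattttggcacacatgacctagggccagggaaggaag
P2ry12: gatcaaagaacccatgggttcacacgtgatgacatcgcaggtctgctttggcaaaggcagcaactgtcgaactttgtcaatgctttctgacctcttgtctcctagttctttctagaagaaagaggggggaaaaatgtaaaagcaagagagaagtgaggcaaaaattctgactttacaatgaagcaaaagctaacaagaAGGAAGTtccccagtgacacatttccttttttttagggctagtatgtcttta
The match lay 47 bases before the RefSeq start site in C1qb, 189 in C1qc and 46 in P2ry12. Within the 250 bases before the start site, the letters were present in 3 of the 4 genes and in 7.69% of all 32851 start sites. They were chosen after the sequences were seen, and a match of letters is not a binding site.

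Every microglia gene was measured in every library. The values are CPM, the share of a library's reads on a common scale (counts per 1 M reads), and none of the 246 values was 0. Over the 41 libraries the mean level was 26.1 ± 10.7 CPM (SD) for Cx3cr1, 24.4 ± 12.2 for C1qb, 19.5 ± 12.7 for C1qc, 13.5 ± 5.91 for P2ry12, 7.67 ± 5.09 for Tmem119 and 4.71 ± 4.99 for C1qa. Library depth, read from the step of the low values, was 1.93 to 8.23 M reads, with a median of 4.10. At this depth the median library held 114 reads of Cx3cr1, 99 of C1qb, 71 of C1qc, 53 of P2ry12, 26 of Tmem119 and 13 of C1qa, and the lowest value, of C1qa in PVN-125 and PVN-305, was 1 read.

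Divided by exon length, the order of levels changed. C1qb led with 22.4 ± 11.2 CPM per kb, followed by C1qc with 10.1 ± 6.58, Cx3cr1 with 5.79 ± 2.37, P2ry12 with 5.30 ± 2.32, C1qa with 4.53 ± 4.80 and Tmem119 with 3.32 ± 2.2. C1qb was the highest C1q chain per kb in 37 of the 41 libraries and C1qa the lowest in 37, and the full order C1qb, C1qc, C1qa was met in 34. The assembled C1q protein holds its chains in equal number, but the values here are of RNA and protein was not measured. The log2 ratio of C1qa to C1qb in CPM ranged from -4.41 in VMH-308 to 0.13 in PVN-86, with a median of -2.80.

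The spread between libraries was described beside the error of counting reads. After nucleus and batch means were taken away, the SD of log2(CPM + 0.5) was 0.66 for Cx3cr1, where counting the median number of reads would give 0.135. The corresponding pair was 0.44 and 0.145 for C1qb, 0.75 and 0.171 for C1qc, 0.69 and 0.198 for P2ry12, 0.85 and 0.283 for Tmem119, and 1.08 and 0.40 for C1qa. The first value of each pair also holds the differences between mice and between amplified samples, so the pairs are a description. C1qa, the gene with fewest reads, had the largest SD.

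**Figure D1:**
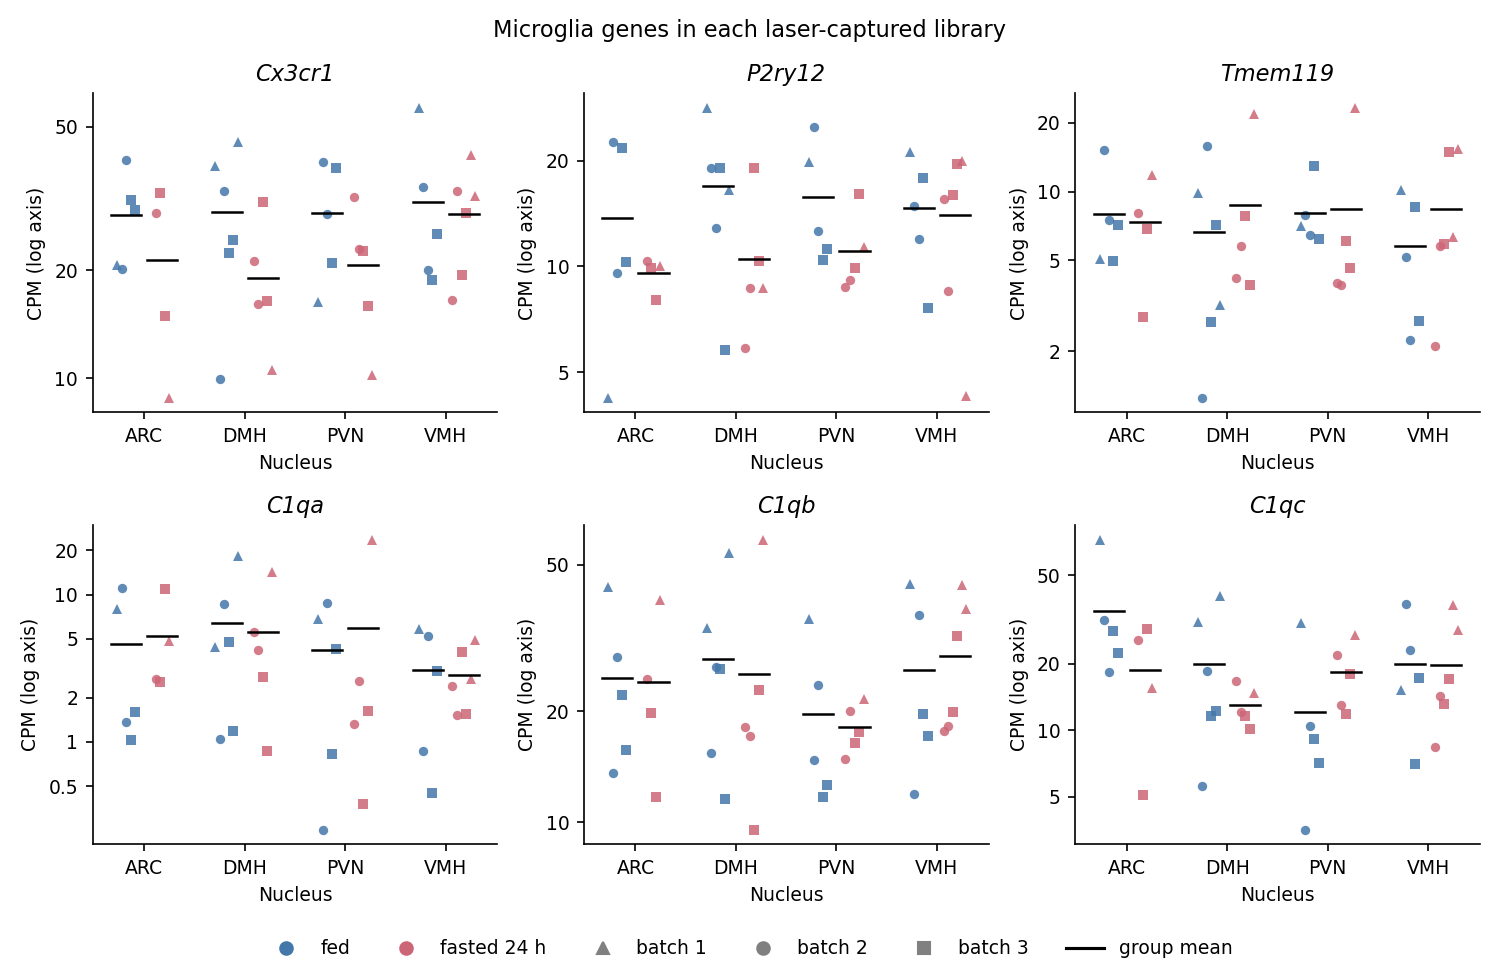
CPM (log axis) of each microglia gene in each of the 41 libraries, by nucleus and state; blue points are fed and red points fasted, the shape gives the batch and the black line is the group mean. Fed and fasted points overlapped in each nucleus for each gene, and triangles of batch 1 stood high for the C1q chains.

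The question of where microglial RNA is most abundant was asked first. None of the 6 genes passed the test for a difference between nuclei, which 43.4% of all 10077 genes tested passed (limma F-test with the mouse as a block, adjusted p under 0.1). Before adjustment 0 of the 6 had a p under 0.05 in that test, where 44.7% of all genes did, and the smallest adjusted p was 0.15, for C1qc. The nuclei themselves were well separated in the captures: Npy averaged 473 CPM in ARC and at most 5.55 elsewhere, Hcrt 112 in DMH, Avp 800 in PVN and Fezf1 219 in VMH.

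Cx3cr1, the fractalkine receptor gene, had means within 1.21 times of each other over the nuclei. It averaged 29.7 ± 11.9 CPM in VMH (n = 11), 25.2 ± 9.84 in ARC (n = 9), 24.8 ± 9.82 in PVN (n = 10) and 24.4 ± 11.4 in DMH (n = 11). The largest pairwise log2 difference of Cx3cr1, DMH minus VMH, was -0.37 with a 95% interval of -0.86 to 0.11. P2ry12, the ADP receptor gene, averaged 14.3 ± 5.57 CPM in VMH, 14 ± 7.03 in DMH, 13.4 ± 5.29 in PVN and 11.9 ± 6.18 in ARC. Tmem119 averaged 8.24 ± 5.88 CPM in PVN, 7.73 ± 3.77 in ARC, 7.59 ± 6.24 in DMH and 7.21 ± 4.65 in VMH. For these 3 genes the mean of the highest nucleus was 1.14 to 1.21 times that of the lowest, and no neighbours in the order differed beyond their spread. Over the 6 pairs of nuclei the intervals reached from -0.84 to 0.54 for P2ry12 and from -0.91 to 0.95 for Tmem119.

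The complement chains had a different order from one another, and again no neighbours differed beyond their spread. C1qc was highest in ARC, at 27.5 ± 18.8 CPM, against 19.8 ± 10.4 in VMH, 16.7 ± 10.1 in DMH and 15.2 ± 8.78 in PVN. C1qb was highest in VMH, at 27.2 ± 11.9 CPM, then 26.6 ± 16.2 in DMH, 24.3 ± 11.2 in ARC and 18.9 ± 7.01 in PVN. C1qa was highest in DMH, at 6.01 ± 5.65 CPM, then 5.05 ± 7.13 in PVN, 4.91 ± 4.09 in ARC and 2.96 ± 1.83 in VMH. Its PVN mean rested on PVN-86, at 23.6 CPM where the median PVN library had 2.11.

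Of the 36 pairwise tests of a member between nuclei, 0 were called and 3 had a p under 0.05 before adjustment (limma). The share of all genes called was 18.1% for ARC against DMH, 17.3% for ARC against PVN, 30.3% for ARC against VMH, 18.3% for DMH against PVN, 22.6% for DMH against VMH and 32.1% for PVN against VMH, and the share with a p under 0.05 before adjustment was 25.5%, 23.8%, 34.8%, 25.8%, 28.5% and 35.9% in the same order. Those nearest to a call were C1qc in ARC minus PVN (log2 difference 0.78 ± 0.32 SE, adjusted p 0.11) and ARC minus DMH (0.75 ± 0.32, adjusted p 0.123), and C1qb in PVN minus VMH (-0.38 ± 0.18, adjusted p 0.126). The C1qc differences depended on the samples. ARC minus PVN was 1.63 in the fed libraries alone (adjusted p 0.0145) and -0.20 in the fasted libraries alone (adjusted p 0.849). Without the mouse of ARC-305 the adjusted p for C1qc was 0.032 in ARC minus PVN and 0.0423 in ARC minus DMH, and without mouse 86 it was 0.0451 and 0.0915. C1qb in PVN minus VMH had an adjusted p of 0.0791 without the mouse of PVN-125. ARC-305, at 5.08 CPM, was the lowest ARC library for C1qc and ARC-111, at 72.6 CPM, the highest.

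**Figure D2:**
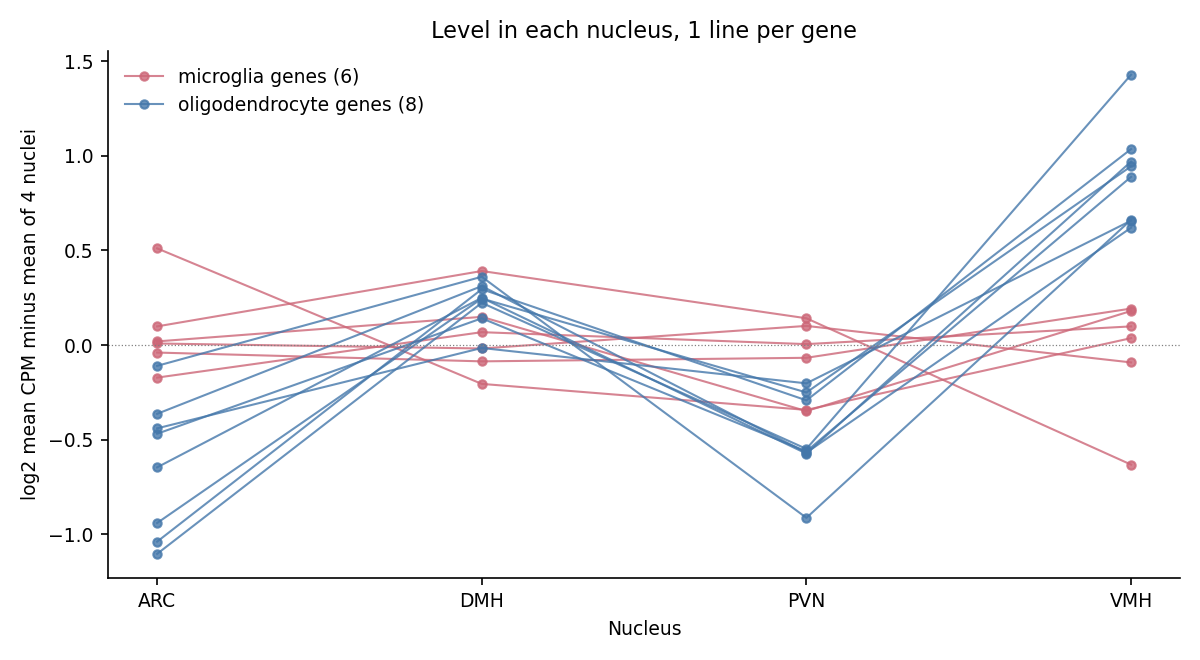
Log2 of the mean CPM in each nucleus minus the mean over the 4 nuclei, 1 line per gene, with microglia genes in red and oligodendrocyte genes in blue. All 8 oligodendrocyte genes are highest in VMH, while among the 6 microglia genes each of the 4 nuclei is the highest for at least 1 gene.

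Oligodendrocyte genes from the same captures shared a regional pattern. All 8 analysed differed between nuclei by the F-test (limma, smallest adjusted p 5.07e-19, Mbp), with the myelin gene Mbp at 593 CPM in VMH, 360 in DMH, 204 in PVN and 194 in ARC. Opalin, another oligodendrocyte gene, with a mean of 4.57 CPM close to that of C1qa, averaged 9.42 CPM in VMH and 1.63 in ARC. Of the 30 other microglia markers listed, 14 were analysed here and 5 of those differed between nuclei, beside 43.4% of all genes: Ctss, a lysosomal protease gene, Itgam, the complement receptor chain CD11b, Fcer1g, an Fc receptor chain, Siglech and Selplg. Ctss averaged 59.0 CPM in ARC against 42.7 in PVN, 35.8 in VMH and 32.7 in DMH, and its log2 difference was 0.80 ± 0.18 for ARC minus DMH (adjusted p 0.0015) and 0.75 ± 0.18 for ARC minus VMH (adjusted p 0.00142). Itgam was lower in DMH than in ARC, PVN and VMH, whereas Fcer1g and Selplg were higher in DMH than in PVN and VMH, and Siglech was lower in VMH than in ARC and DMH.

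The ligands and partners of the members were tested in the same way, beside 43.4% of all genes called. Cx3cl1, the fractalkine gene, averaged 180 CPM in VMH, 109 in DMH, 106 in PVN and 90.8 in ARC (F-test adjusted p 4.84e-08). In the fractalkine list, which adds the shedding proteases and the inhibitory G protein subunits, 5 of 6 genes differed between nuclei, led by Gnai1, Cx3cl1, Gnai2 and Gnai3. Among lineage factors and growth signals 6 of 8 did, and among them Il34, a ligand of the receptor on which microglia depend, averaged 18.8 CPM in VMH and 5.73 to 6.40 in the other nuclei. In the complement list 4 of 7 differed, Cd59a, C3ar1, C4b and Itgam, and in the purine list 2 of 8, Kcnk13, a potassium channel of microglial surveillance, and Adora1, an adenosine receptor. Reactive microglia genes differed in 5 of 6, led by the antigen presentation gene H2-Aa, which averaged 4.20 CPM in ARC and was at 0 in 14 libraries.

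Fasted and fed mice were then compared in each nucleus. None of the 6 microglia genes passed an adjusted p under 0.1 in any nucleus (limma with batch as a covariate), where 0.176% of all genes did in ARC, 0.0208% in VMH, 0.367% in PVN and 0.0103% in DMH. Before adjustment, p was under 0.05 for 1 member in ARC and 1 in PVN, C1qc in both cases, and for 0 in VMH and DMH, beside 8.1% of all genes in ARC, 9.97% in PVN, 6.98% in VMH and 6.62% in DMH. Of the 24 differences 16 were below 0, beside 48.3% of all genes in ARC, 50% in VMH, 49.2% in PVN and 48.6% in DMH. The fasted and fed libraries overlapped in all 24, where 2.13% of all genes did not overlap in ARC, 0.5% in VMH, 1.31% in PVN and 0.4% in DMH. The median log2 difference of the members was -0.14 in ARC, -0.02 in VMH, -0.17 in PVN and -0.11 in DMH, beside 0.02, -5.18e-05, 0.01 and 0.01 over all genes tested.

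Cx3cr1 and P2ry12 were the members whose means lay lower in fasted mice in each nucleus, though no difference was called. The values of Cx3cr1 are given first. In ARC the fasted libraries had 8.82, 14.9, 28.8 and 32.7 CPM and the fed libraries 20.2, 20.7, 29.4, 31.3 and 40.4. In DMH the fasted libraries had 10.6, 16.1, 16.4, 21.1 and 30.9 CPM, and the fed libraries ran from 9.98 through a median of 28.7 to 45.3. The fed and fasted ranges overlapped in both nuclei, and the lowest ARC value belonged to mouse 86. Mouse 86 was again the lowest fasted mouse in DMH and PVN. In PVN the fasted libraries had 10.2, 15.9, 22.5, 22.8 and 31.8 CPM and the fed libraries 16.3, 20.9, 28.6, 38.5 and 39.9. In VMH the fasted libraries ran from 16.5 through a median of 30.5 to 41.7 CPM and the fed libraries had 18.8, 20.0, 25.2, 34.0 and 56.4. These values gave log2 differences of -0.48 ± 0.32 (SE) in ARC, -0.17 ± 0.26 in VMH, -0.49 ± 0.26 in PVN and -0.50 ± 0.35 in DMH. The DMH difference of Cx3cr1 rested on batch 1, in which DMH-86 was the only fasted DMH library. Without DMH-86 it was -0.02, but the 2 fed DMH libraries of batch 1 then no longer inform it. Within batches 1, 2 and 3 it was -1.94, 0.01 and -0.05. Without batch 1 the Cx3cr1 difference was -0.26 in ARC, -0.02 in VMH, -0.45 in PVN and -0.02 in DMH.

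Averaged over the nuclei, Cx3cr1 differed by -0.40 ± 0.18 with a 95% interval of -0.76 to -0.03. Its unadjusted p was 0.0329 and its adjusted p 0.317 (limma, mouse as a random block), so it did not pass the threshold, which 3.24% of all genes passed. The estimated correlation between libraries of 1 mouse was -0.00331, so the block left them nearly independent in this test. None of the 6 members passed, and only Cx3cr1 had a p under 0.05 before adjustment, as 13.2% of all genes did. Of the 6 averages 4 were below 0, beside 47.7% of all genes. Mouse 86, fasted and of batch 1, moved it most: 3 of the lowest 4 Cx3cr1 values of all libraries were ARC-86, PVN-86 and DMH-86, and without that mouse the difference was -0.15 (adjusted p 0.818). Within batches, Cx3cr1 was lower in fasted mice in 9 of the 12 combinations of nucleus and batch, each of which held 1 or 2 libraries per state.

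P2ry12 was not called either. Its fasted and fed means were 9.58 and 13.7 CPM in ARC, 14 and 14.7 in VMH, 11.1 and 15.8 in PVN, and 10.5 and 16.9 in DMH. The log2 difference averaged over nuclei was -0.38 ± 0.20, with an interval of -0.79 to 0.03 and an adjusted p of 0.432. Leaving out 1 mouse moved it from -0.59 (adjusted p 0.159, without the mouse of PVN-313) to -0.22 (adjusted p 0.695, without the mouse of PVN-125). Within batches it was below 0 in 8 of the 12 combinations, and in batch 3 it was above 0 in DMH (0.40), PVN (0.22) and VMH (0.58). The P2ry12 difference changed sign in VMH without batch 1 (0.19) and in ARC without ARC-308 (0.06). Tmem119 was at 0.11 ± 0.26 with an adjusted p of 0.899, and its interval of -0.40 to 0.63 left room for a change of either sign. Without mouse 86 it was -0.18 (adjusted p 0.866), and without the mouse of ARC-111 -0.02 (adjusted p 0.988), and it also lay below 0 without batch 1 (-0.17) and with array weights (-0.03).

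C1qc lay on opposite sides of 0 in ARC and PVN. Its fasted libraries in ARC had 5.08, 15.5, 25.6 and 28.6 CPM and its fed libraries 18.2, 22.2, 28.0, 31.5 and 72.6, a log2 difference of -0.94 ± 0.42 (p 0.0392, adjusted p 0.579 by limma). In PVN the fasted libraries had 11.8, 13, 18, 21.8 and 26.8 CPM and the fed libraries 3.56, 7.14, 9.09, 10.5 and 30.4, a log2 difference of 0.84 ± 0.36 (p 0.0311, adjusted p 0.453). In PVN 4 of 5 fed libraries lay below every fasted library, and the fed library above them was of batch 1. The test of whether the change differed between nuclei gave C1qc a p of 0.034 and an adjusted p of 0.853, and called 0 of the 6 members and 0% of all genes, with 5.58% of all genes at a p under 0.05 before adjustment. Without ARC-305 the ARC difference was -0.49 (adjusted p 0.742), and without either ARC-86 or ARC-111 it was -0.56, while without ARC-100 it was -1.40 (adjusted p 0.523). The PVN difference ran from 0.54 without PVN-125 to 1.1 without PVN-86 or PVN-111.

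C1qb and C1qa had no called difference between states. For C1qb the log2 difference was -0.06 in ARC, 0.06 in VMH, 0.00034 in PVN and -0.04 in DMH, and its average of -0.03 ± 0.15 had the narrowest interval of the 6 members, -0.32 to 0.26. For C1qa the average was 0.12 ± 0.33 with an interval of -0.54 to 0.77. In DMH these values depended on whether depth was in the fit: fasted libraries there had 2.64 to 4.63 M reads and fed libraries 2.93 to 8.23, and with depth as a covariate the DMH difference was 1.17 for C1qb (adjusted p 0.649), 1.76 for C1qa (adjusted p 0.757) and -1.08 for Cx3cr1 (adjusted p 0.771), none of them called.

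**Figure D3:**
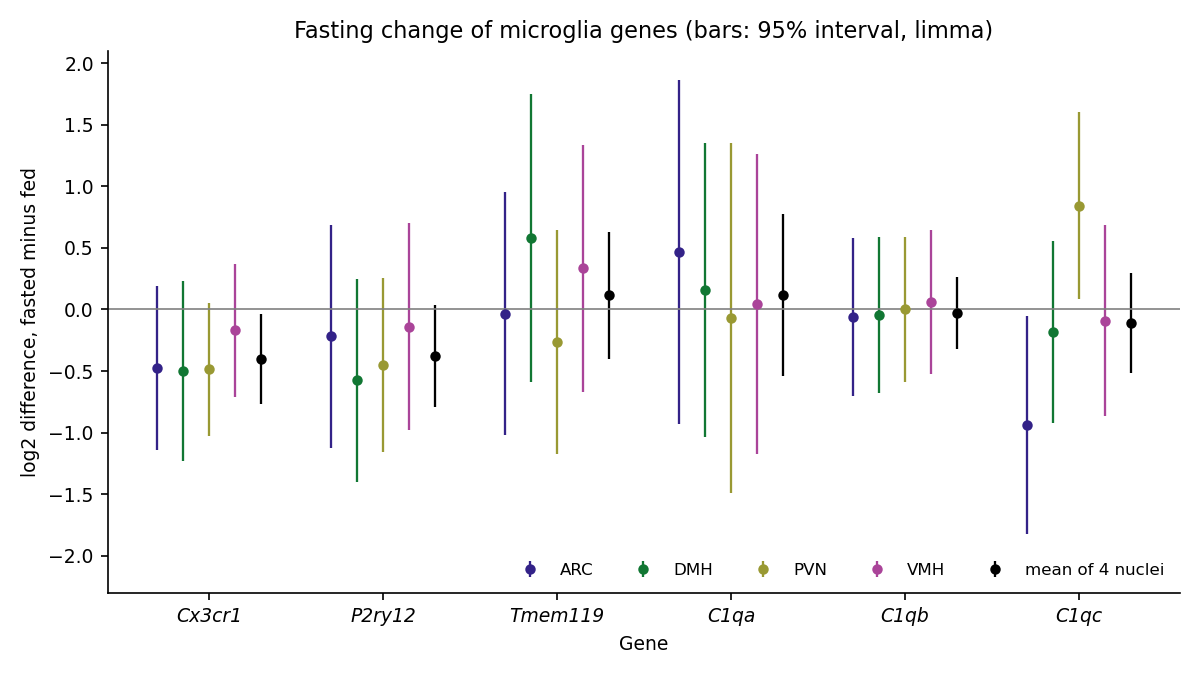
Log2 difference of each microglia gene between fasted and fed mice in each nucleus (coloured points) and averaged over the 4 nuclei (black points), with 95% intervals from limma. Intervals of Cx3cr1 averaged over nuclei and of C1qc in ARC and PVN lie off 0 before adjustment over all genes, and no point was called after it.

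The other genes of these pathways were compared in the same way. In the fasting average 0 of the 14 other microglia markers, 0 of 7 complement genes, 0 of 6 fractalkine genes, 0 of 8 purine genes, 0 of 8 lineage factors and growth signals and 0 of 6 reactive genes passed an adjusted p under 0.1 (limma), beside 3.24% of all genes. Before adjustment p was under 0.05 for 13.2% of all genes, and in the lists for 1 of the other microglia markers, Itgam (-0.33 ± 0.16, adjusted p 0.361), 3 complement genes and 1 fractalkine gene. The fractalkine gene Cx3cl1 was at 0.10 ± 0.07 (adjusted p 0.628). In the list of perivascular and meningeal macrophages, of which 3 of 12 were analysed, 1 was called. This was Lyve1, higher in fasted mice on average (1.23 ± 0.35, adjusted p 0.0473) and in PVN (2.63 ± 0.56, adjusted p 0.0637). The others were not called, F13a1 at -0.10 on average (adjusted p 0.941) and -0.45 in PVN, and Stab1 at -0.03 (adjusted p 0.977) and 0.48. Of markers of other cell types, 2 of 6 for astrocytes were called, both higher in fasted mice, Agt (0.49 ± 0.10, adjusted p 0.00449) and Gjb6 (0.42 ± 0.12, adjusted p 0.042). Called lower were 1 of 8 for oligodendrocytes, Ugt8a (-0.72 ± 0.20, adjusted p 0.0503), 1 of 9 for vessel cells, Flt1 (-0.33 ± 0.10, adjusted p 0.073), and 1 of 5 for neurons, Gap43 (-0.21 ± 0.05, adjusted p 0.0179), and 0 were called for precursors, tanycytes and ependyma, red blood cells or monocytes and neutrophils. Without mouse 86 neither Lyve1 difference was called, at 0.86 ± 0.34 (adjusted p 0.241) on average and 2.24 ± 0.63 (adjusted p 0.264) in PVN. The summed level of the 3 macrophage genes ran from 9.82 to 48.2 CPM in the 4 libraries of mouse 86, which also held the highest C1qa and the highest Tmem119 value of all libraries, both in PVN-86, from 1.71 to 14.3 CPM in the 16 other fasted libraries and from 1.18 to 13.6 CPM in fed libraries. The sum averaged 11.8 CPM in fasted and 7.54 in fed libraries, but 7.14 in fasted libraries without mouse 86. Lyve1 averaged 5.27 CPM in fasted and 0.534 in fed libraries, where F13a1 averaged 1.06 and 1.54 and Stab1 5.51 and 5.47. The part of these cell types' genes in the members' values was not tested.

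A further difference among the microglia genes was between batches of capture and library preparation, a comparison added after the data were seen. Batch 1 held 10 libraries of 4 mice, 2 fasted and 2 fed mice, and batches 2 and 3 held the other 8 mice. Mice 85 and 92 entered with 1 library each, VMH-85 and DMH-92, because their PVN samples had no matching column and were not analysed here. The ARC and PVN libraries of batch 1 analysed here were therefore those of mouse 86 and the mouse of ARC-111. All 3 C1q chains and Tmem119 were higher in batch 1, and Cx3cr1 and P2ry12 were not called. This made 4 of the 6 members called, all higher in batch 1, beside 34.5% of all genes called in either direction and 15.9% called higher (limma, mouse as a random block). The estimated correlation between libraries of 1 mouse was -0.00331, so this test counted libraries nearly as independent although batch is a property of the mouse.

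C1qb showed it most plainly. Its libraries of batch 1 ran from 21.6 through a median of 41.8 to 58.5 CPM, those of batch 2 from 11.9 through 18.1 to 36.5, and those of batch 3 from 9.54 through 17.3 to 32.0. The means were 41.3 ± 10.3 CPM (SD, n = 10), 20.04 ± 6.62 (n = 15) and 17.9 ± 6.01 (n = 16), and the log2 difference of batch 1 from the mean of the others was 1.1 ± 0.17 (SE, adjusted p 1.26e-06). In ARC both batch 1 libraries, at 40.1 and 43.5 CPM, lay above the other 7, which ran from 11.7 to 28.1, and in DMH and VMH all 3 lay above the others as well. In PVN one of the 2 batch 1 libraries, PVN-86 at 21.6 CPM, fell within the range of the others.

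C1qc and C1qa shared that direction in each nucleus. C1qc averaged 31.2 ± 17.1 CPM in batch 1, 17.3 ± 9.35 in batch 2 and 14.4 ± 7.05 in batch 3, a log2 difference of 0.99 ± 0.23 (adjusted p 0.000958). C1qa averaged 9.38 ± 6.98, 3.85 ± 3.37 and 2.61 ± 2.60 CPM, a log2 difference of 1.52 ± 0.38 (adjusted p 0.00177). By nucleus the batch 1 difference was 0.77 to 1.42 for C1qb, 0.71 to 1.40 for C1qc and 0.91 to 2.62 for C1qa, so all 12 values were above 0. Cx3cr1 took both signs, at -0.97 in ARC, -1.01 in PVN, 0.37 in DMH and 0.82 in VMH, and averaged -0.09 ± 0.21 (adjusted p 0.801). P2ry12 was at -0.03 ± 0.24 (adjusted p 0.947).

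The C1q difference was as large over mice. With 1 value per mouse, the mean over its nuclei after centring, the 4 batch 1 mice lay above all 8 others for C1qb and C1qc. The difference was 1.17 for C1qb and 1.16 for C1qc, each with an exact permutation p of 0.00404 (2-sided, over 495 splits). No split was more extreme, so this is the smallest p the test can give. For C1qa the difference was 1.48 with an exact p of 0.00808, and the mice overlapped. For Cx3cr1, P2ry12 and Tmem119 the exact permutation p was 0.416, 0.497 and 0.287. Adjusted over these 6 exact tests, the p was 0.0121 for C1qb and C1qc, 0.0162 for C1qa and 0.43 to 0.497 for the others. Batch 1 was set against the others after the data were seen, a choice that neither the exact p nor its adjustment covers. Without mouse 86 (165 splits) the exact permutation p was 0.0121 for C1qb and C1qc, again for the most extreme split, and 0.0242 for C1qa. Cx3cr1 too was then higher in the batch 1 mice, by 0.617 (exact permutation p 0.0242).

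Tmem119 rested on a single mouse. Its batch 1 difference of 0.79 ± 0.30 (adjusted p 0.0424, limma) fell to 0.18 (adjusted p 0.773) without mouse 86, in which Tmem119 averaged 18.1 CPM over the nuclei, where the next mouse averaged 8.05. The same mouse had low Cx3cr1, at 8.82 CPM in ARC and 10.2 in PVN, each the lowest of its nucleus, and 10.6 in DMH, where DMH-125 had 9.98, but 32.2 in VMH, within the range there. Without mouse 86 Cx3cr1 in batch 1 was 0.40 ± 0.24 above the others (adjusted p 0.233) and the C1q chains stayed called, C1qb at 1.15 (adjusted p 5.43e-05), C1qc at 1.33 (adjusted p 0.000583) and C1qa at 1.29 (adjusted p 0.0404), where 30.5% of all genes were called.

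Other values were then set beside batch 1, and their part in the C1q difference was not tested. Among the other microglia markers 3 of 14 were higher, Tyrobp, a signalling adaptor (1.53 ± 0.21, adjusted p 1.01e-07), Fcer1g (0.88 ± 0.27, adjusted p 0.0117) and Sall1, a microglial transcription factor (0.64 ± 0.25, adjusted p 0.0469), and the rest were not called, among them Ctss at -0.01 ± 0.13 and Itgam at -0.15 ± 0.19. That count stood beside 15.9% of all genes called higher, and the list share lay near it. In the complement list beyond C1q 0 of 7 were called, with 0 at an unadjusted p under 0.05, beside 34.5% of all genes called, and 0 of 6 reactive genes were. In the fractalkine list 4 of 6 were called, Cx3cl1 (0.43 ± 0.09) and Gnai2 (0.46 ± 0.10) higher and Gnai1 (-0.38 ± 0.08, adjusted p 9.1e-05) and Adam10 (-0.52 ± 0.12) lower. Among lineage factors and growth signals 2 of 8 were, Irf8 higher (0.97 ± 0.41, adjusted p 0.0707) and Mef2a lower (-0.45 ± 0.08, adjusted p 4.06e-05), and in the purine list 1 of 8, Kcnk13, lower (-1.33 ± 0.33, adjusted p 0.00145). Of the 3 macrophage genes 2 were called, both higher: Lyve1 at 1.56 ± 0.40 (adjusted p 0.00247), with 0.87 (adjusted p 0.175) without mouse 86, and Stab1 at 0.70 ± 0.28 (adjusted p 0.059), with 0.49 (adjusted p 0.331), while F13a1 was at -0.10 (adjusted p 0.889). Lyve1 averaged 8.73 CPM in batch 1 and 0.947 in the others, and Stab1 8.09 and 4.65. The summed level of the 3 ran from 1.71 to 48.2 CPM in batch 1 (to 13.6 CPM without mouse 86), from 2.63 to 14.3 in batch 2 and from 1.18 to 13.5 in batch 3. Markers of other cell types were called too (limma). For neurons 3 of 5 were, Slc17a6 (-0.64 ± 0.08, adjusted p 3.15e-09) and Syt1 (-0.24 ± 0.06) lower and Tubb3 (0.32 ± 0.07) higher. Called higher were 2 of 8 for oligodendrocytes, led by Mbp (0.76 ± 0.11, adjusted p 2.68e-07), 2 of 6 for their precursors, 2 of 9 for vessel cells and 2 of 4 for tanycytes and ependyma. Also higher were 1 of 6 for astrocytes, Agt (0.61 ± 0.12, adjusted p 0.000107), and 1 of 4 for red blood cells, Hbb-bs (0.69 ± 0.28, adjusted p 0.0601). The summed level of the red blood cell genes averaged 22.9 CPM in batch 1 (29.3 without mouse 86), 13.3 in batch 2 and 11.4 in batch 3, and ran from 5.06 to 67.4 in batch 1, overlapping the others. The libraries differed as a whole. The genes of the table summed to 604723 to 689010 CPM in batch 1 and to 554896 to 611613 in the others, and 350 to 525 genes were at 0 in a batch 1 library, against 95 to 665. Depth was lower in batch 1, with a median of 3.36 M reads against 4.20 and 4.73. By exon length, the median log2 difference was 0.05 over 462 genes of up to 1 kb, 0.1 over 1171 genes of 1 to 2 kb, where all 3 C1q chains belong, 0.07 over 1531 genes of 2 to 3 kb, -0.003 over 2718 genes of 3 to 5 kb and -0.09 over 3968 genes above 5 kb. Of the genes of 1 to 2 kb, 4.61% stood further towards batch 1 than C1qc, whose difference was the smallest of the C1q chains.

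**Figure D4:**
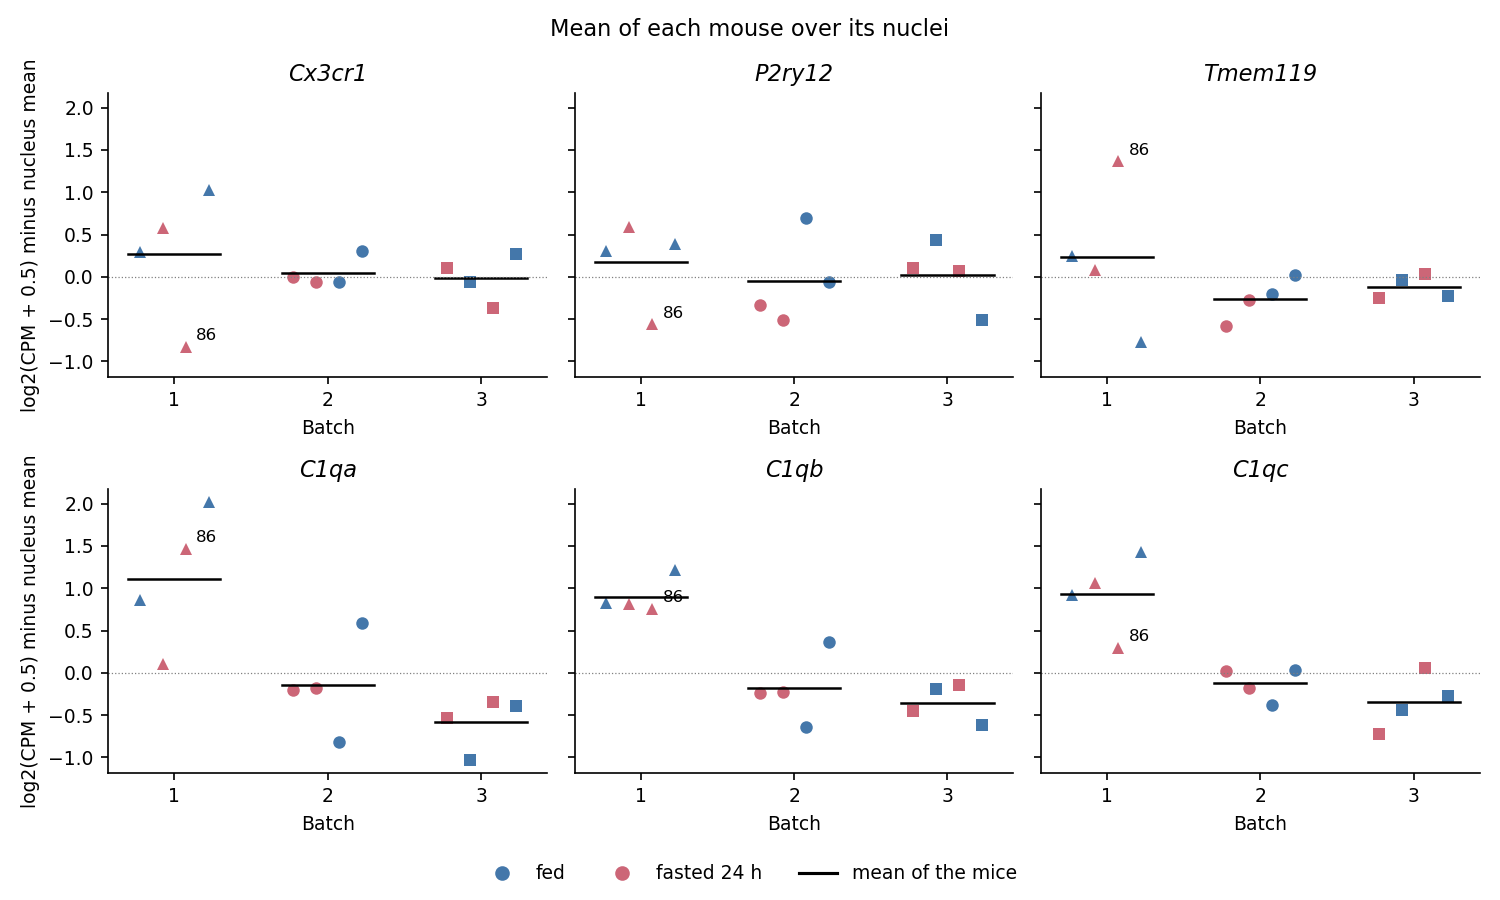
Mean of each mouse over its nuclei, as log2(CPM + 0.5) minus the nucleus mean, for each microglia gene by batch; blue points are fed mice and red points fasted mice, the black line is the mean of the mice and mouse 86 is labelled. All 4 batch 1 mice lie above the other 8 for C1qb and C1qc, while the mice overlap for C1qa, Cx3cr1, P2ry12 and Tmem119.

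Whether the microglia genes rose and fell together from library to library was then described. With nucleus and batch means taken away, Pearson's r over the 41 libraries ran from -0.17 (Cx3cr1 and C1qa) to 0.27 (C1qa and C1qc), with a median of 0.02 over the 15 pairs, of which 10 were above 0. Cx3cr1 and P2ry12 had an r of 0.18 and P2ry12 and Tmem119 of 0.01. These correlations are descriptions, since libraries of a mouse share their source, the C1qa values carry much counting error and CPM shares its depth across genes.

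The C1q chains did move together before batch was taken away. With nucleus means alone removed, their 3 pairwise r values were 0.49 for C1qa and C1qc, 0.47 for C1qa and C1qb, and 0.40 for C1qb and C1qc. Once batch was removed too they were 0.27, 0.06 and -0.03. Within batches the r of C1qb and C1qc was -0.06 in batch 1, 0.03 in batch 2 and -0.01 in batch 3, that of C1qa and C1qb was 0.13, 0.38 and -0.26, and that of C1qa and C1qc was -0.03, 0.44 and 0.14. The r of C1qa and C1qc after batch was removed ran from 0.10 to 0.33 when 1 mouse was left out. The r of C1qb and C1qc was thus near 0 in each batch, and the pairs with C1qa took both signs over batches. Each batch held only 10 to 16 libraries, and no interval was computed for these r values. Cx3cr1 and Tmem119 had an r of -0.83 in batch 1, which held mouse 86, and 0.71 in batch 2.

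**Figure D5:**
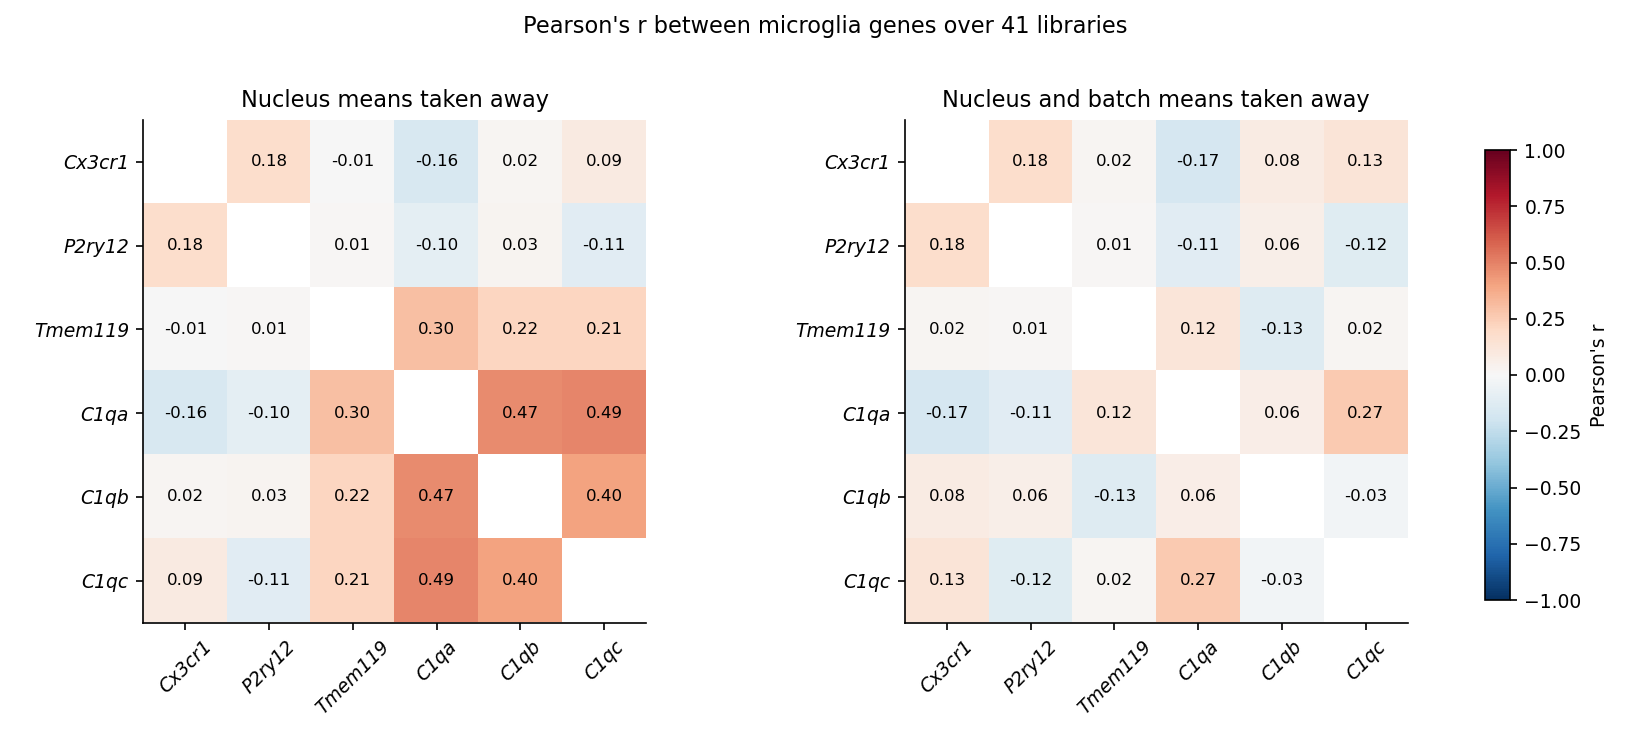
Pearson's r between each pair of microglia genes over the 41 libraries, with nucleus means taken away (left) and nucleus and batch means taken away (right). The block of the C1q chains at 0.40 to 0.49 on the left falls to between -0.03 and 0.27 on the right.

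The same median was taken over other lists of cell type markers. The 8 oligodendrocyte genes had a median pairwise r of 0.38 over 28 pairs, all above 0, after nucleus and batch were removed. The 4 red blood cell genes, with mean levels of 1.43 to 9.24 CPM, had 0.56 over 6 pairs. Elsewhere it was low as well, at 0.02 for oligodendrocyte precursors, 0.03 for vessel cells, -0.03 for neurons, 0.1 for tanycytes and ependyma and 0.17 for astrocytes, so a low median was not particular to the microglia genes. The 14 other microglia markers had a median of -0.01 over 91 pairs. The red blood cell genes are paralogous globins that may share reads, and no test of these differences was made.

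The genes whose pattern was most like the mean of the 6 members, among 7634 genes with a mean of at least 5 CPM, were Slain1 (r 0.63), 9530051G07Rik, Cox17, Arhgef15, Sh3rf1, Aftph, Htatip2, Pwwp2a, Proca1 and Zfp558 (r 0.55), and none was on any list used here. The members' own r to that mean, of which each is part, was 0.39 to 0.49. Of the other microglia markers 12 of 14 had an r above 0, with a median of 0.09, where 48.6% of all genes were above 0. Lists of other cell types had medians as high or higher, 0.27 for vessel cells (8 of 9 above 0), 0.19 for red blood cells, 0.18 for oligodendrocyte precursors and 0.1 for astrocytes (5 of 6 above 0), so this likeness was not particular to microglia markers. Each member's single best partner was likewise another gene: Cxcl12 for Cx3cr1 (r 0.67), Hepacam for C1qc (0.69), Lrrtm2 for P2ry12 (0.66), Eml4 for Tmem119 (0.60), Arhgef15 for C1qb (0.58) and Tdrd7 for C1qa (0.57).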

How the data were processed

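Laser-captured ARC, DMH, PVN and VMH were sequenced from amplified RNA. Reads were aligned to GRCm38 with TopHat2 2.0.11 (CASAVA 1.7 and Cufflinks 2.2.1 are also named in the submitters' processing notes), and the authors deposited CPM values per gene, made with edgeR. The counting program and strand setting are not given in the sources used here. Of the 43 columns, 41 were matched to labels. The other 2 name ARC of mice 85 and 92, for which the labels list PVN samples and no ARC sample, so they may carry another nucleus's name and were not used. Those PVN samples, both of batch 1, were not analysed here, which leaves fasted and fed PVN with 1 library fewer each. The table holds no gene between ENSMUSG00000000861 and ENSMUSG00000028747, so many listed genes, such as Csf1r, were not analysed here. Symbols came from GENCODE M21.

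Depth was read from the step of low CPM values, of which 97.6 to 99.1% lay within 0.1 of a whole read. CPM was tested as log2(CPM + 0.5) with limma 3.58.1 in R 4.3.3, with genes of at least 1 CPM in as many libraries as the smallest group, Benjamini-Hochberg adjustment over all genes and a threshold of 0.1. Fold changes on this scale understate changes of low genes. Fasting in a nucleus was fitted with batch, the fasting average with batch and mouse as a random block, and nuclei and their interaction with state with mouse as a fixed block. Libraries with the same number came from the same mouse, per the labels. Correlations used Python 3.11.15 and numpy 2.4.6, and exact tests enumerated all splits. The methods were tested on simulated data. Alternatives varied the pseudocount, filter, scaling, weights, depth, batch, block and mice.

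The 6 genes and all lists were chosen with earlier results of these data known. From each list, called genes were named, at most 4 by adjusted p, otherwise the highest expressed, and as most alike the 10 genes of highest r among those with a mean of at least 5 CPM. Genes named outside that rule, the batch comparison, the length classes, the counting error and the promoter motif were chosen after values were seen.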

Additional observations from a re-analysis of the deposited data

Results flagged for a closer look

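In 8 of the 48 groups of 4 to 6 libraries, 1 library stood apart from the others of its nucleus and state by Dixon's criterion. About 2.4 would do so by chance if values were normal and groups independent. The criterion was applied to CPM without a log and without batch removed, and the same libraries recur for each gene. The count is therefore a description, not a test against 2.4. Of these, 6 were libraries of mouse 86 or the mouse of ARC-111, both of batch 1. C1qa was 23.6 CPM in PVN-86, where the other fasted PVN libraries had 0.382 to 2.61. C1qb was 58.5 CPM in DMH-86, against 9.54 to 22.9. C1qc was 72.6 CPM in ARC-111, against 18.2 to 31.5, and 30.4 CPM in PVN-111, against 3.56 to 10.5. Tmem119 was 21.9 CPM in DMH-86, against 3.89 to 7.78, and 23.3 CPM in PVN-86, against 3.91 to 6.11. Outside batch 1, Tmem119 was 15.2 CPM in ARC-125, against 4.98 to 7.53, and 12.9 CPM in PVN-308, against 6.19 to 7.88. No library of Cx3cr1 or P2ry12 stood apart in this way.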

How the results depend on the processing

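The counts of 0 microglia genes called for fasting held under all alternatives, leaving out each mouse included, with smallest adjusted p-values of 0.467 to 0.873 in ARC, 0.847 to 0.989 in VMH, 0.364 to 0.854 in PVN, 0.619 to 0.998 in DMH, 0.159 to 0.674 averaged over nuclei and 0.789 to 0.998 for the interaction (limma). Between nuclei the count of 0 became 1, always C1qc, in ARC minus PVN with a pseudocount of 2 (adjusted p 0.0986), array weights (0.0571), a depth covariate (0.0816), without batch 1 (0.0849) and in fed libraries alone (0.0145), in the F-test with array weights (0.0997) and in fed libraries alone (0.0304), and in ARC minus DMH with a depth covariate (0.0933). Leaving out each mouse gave counts from 0 to 1 in the F-test, ARC minus DMH, ARC minus PVN and, for C1qb, PVN minus VMH, and 3 to 4 for batch, with 3 without mouse 86. The F-test called C1qc without the mouse of ARC-305 (adjusted p 0.0407) or mouse 86 (0.078). The cause was not tested. Without the mouse as a replicate block the counts of microglia genes remained 0 between nuclei (smallest adjusted p 0.154 in the F-test), 0 for the fasting average (0.324) and 4 for batch. With a correlation of -0.00331 between libraries of 1 mouse, the block had little weight in the fits of the fasting average and batch. Fasted and fed mice share no number, so no pairing of states was possible. The median pairwise r ran from -0.085 to 0.103, and from -0.0107 to 0.0598 without single mice. Of 1574 alternative values of single-gene differences, 1520 kept their call and were counted as the same, 42 moved, 11 passed the threshold newly and 1 lost it. For called differences, the same call and sign were enough to count as the same, whatever the size. No called difference changed sign, and uncalled ones did 145 times, some of them among the values counted as the same. Depth limits C1qa most, with a median of 13 reads.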
